A study of Homo sapiens with 6 samples.

Results

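Human chromosome 19 carries the densest collection of zinc finger genes in the genome, and their messenger RNA was followed here across 6 prostate cancer cell lines with 1 RNA-seq library each. The genes were chosen by name and place: protein-coding genes on chromosome 19 whose symbol is ZNF followed by a number, at 1 FPKM or more in at least 1 of the 6 libraries. FPKM counts sequenced fragments relative to transcript length and to the size of the library, so levels of different genes can be set side by side. Of 251 such genes listed in the authors' tables, 212 reached that level, out of 17436 measured genes of any kind and 60658 listed. They made up 1.58% of the 13442 measured protein-coding genes. Of the 39 that stayed below the level, 5 were listed at 0 in every library. The lowest genes inside the limit peaked at 1.11 FPKM (ZNF177, in TaxR), 1.15 FPKM (ZNF625, in DU145) and 1.30 FPKM (ZNF347, in CabR). The highest genes outside it peaked at 0.989 FPKM (ZNF575, in C4-2B), 0.920 FPKM (ZNF90, in DTXR) and 0.827 FPKM (ZNF540, in DTXR).

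The lines form 2 lineages. C4-2B is an androgen receptor-positive, castration-resistant prostate carcinoma line and DU145 an androgen-independent one, and both parents were grown without taxane. TaxR is the docetaxel-resistant line derived from C4-2B, and CabR the cabazitaxel-resistant line derived from TaxR. In the other lineage DTXR is docetaxel-resistant and derived from DU145, and CTXR is cabazitaxel-resistant and derived from DTXR. TaxR and DTXR were kept under 5 nM docetaxel, CabR and CTXR under 5 nM cabazitaxel, and no line received a further treatment before harvest. Both drugs are taxanes, which act by stabilising microtubules. Each line is represented by a single library, so a difference between lines has no replicate check and carries no p-value. The size rule used here calls a gene higher or lower at a log2 ratio of (FPKM + 1) of 1 or more in either direction. Adding 1 makes the change of weakly expressed genes look smaller than it is. A gene under 1 FPKM in the reference line cannot be called lower at all. In bulk RNA, fewer cells that express a gene and less RNA per cell cannot be told apart.

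Most of these genes encode KRAB zinc finger proteins. A string of C2H2 fingers, each folded around a zinc ion, reads DNA, and the KRAB domain binds the corepressor TRIM28, which brings in the histone methyltransferase SETDB1, heterochromatin protein 1 and the NuRD complex. Many of the proteins silence transposable elements, and the genes lie in clusters that grew by tandem duplication, so neighbours are often close relatives. Reads of such relatives were divided among genes by the authors' software, which makes the exact split between close paralogs uncertain. The transcribed stretches of 87 of the 212 genes overlapped another measured gene, on the opposite strand for 52, and whether the counting used strand is not given in the sources used here.

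Total FPKM ranged from 711800 to 818400 per library, with 13418 to 14270 genes at 1 FPKM or more. Mitochondrial genes took 17.9% to 27.9% of FPKM in the C4-2B lineage and 35.3% to 40.7% in the DU145 lineage. No source used here states the read totals. As a rough estimate of 1 fragment, percentile 5 of FPKM times transcript length was taken over genes with 1 transcript, above a small floor. This put 1 FPKM over a 3 kb transcript at about 44.2 to 63.4 fragments, with CTXR at the upper end. On that estimate the CTXR library was not shallower than the others. The percentile also depends on how many weakly expressed genes a library lists, so the depth of CTXR remains uncertain. Marker genes kept each line on its own side. The 10 markers of the C4-2B side summed to 2483 to 5320 FPKM in its lineage and 9.22 to 14.0 FPKM in the other. The 10 markers of the DU145 side summed to 2950, 3200 and 3914 FPKM across DU145, DTXR and CTXR. In TaxR they reached 100.0 FPKM against 68.9 FPKM in C4-2B and 46.9 FPKM in CabR, and 8 of the 10 were past the size rule there.

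Chromosome 19 ZNF genes were expressed at low to moderate levels in all 6 lines, and 138 of the 212 were at 1 FPKM or more in every library. The number at 1 FPKM or more was 181, 195 and 189 across C4-2B, TaxR and CabR and 188, 189 and 160 across the DU145 lineage in the same order. CTXR thus had the fewest, while over all genes it had the most at that level. Only 6 members reached 1 FPKM in a single library, 3 of them in TaxR, 2 in DTXR and 1 in DU145. The median member stood at 2.99, 3.40 and 3.60 FPKM across C4-2B, TaxR and CabR, and at 3.37, 3.96 and 2.17 FPKM across DU145, DTXR and CTXR.

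The 4 most abundant members on average were ZNF146, ZNF580, ZNF358 and ZNF444. ZNF146, a protein made almost wholly of zinc fingers, had 31.5, 45.2 and 41.5 FPKM across C4-2B, TaxR and CabR and 78.4, 81.7 and 52.99 FPKM across DU145, DTXR and CTXR. All 3 DU145-lineage libraries lay above all 3 C4-2B-lineage libraries for this gene. ZNF358 was the other way round, at 51.1, 42.7 and 38.5 FPKM in the C4-2B lineage and 26.1, 26.7 and 29.6 FPKM in the DU145 lineage. ZNF580 ranged from 25.4 FPKM in DTXR to 51.7 FPKM in DU145 and ZNF444 from 20.2 FPKM in DTXR to 41.9 FPKM in C4-2B, so for both the lowest library was DTXR.

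In the DU145 lineage the members stood lowest in CTXR, the cabazitaxel-resistant line. Against DU145, 29 of the 212 members were lower and 1 was higher, with a median log2 ratio of -0.34. Among all measured genes 5.47% were lower and 7.45% higher, with a median of 0.00. Against DTXR, the line CTXR came from, 38 members were lower and 1 higher, with a median of -0.41, where 5.25% of all measured genes were lower and 7.29% higher. These comparisons share the CTXR library. In the DU145 comparison the members supplied 4.85% of the 598 lower protein-coding genes, and in the DTXR comparison 5.94% of 640. Below a ratio of 0, without regard to size, lay 170 members against DU145 and 168 against DTXR.

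**Figure D1:**
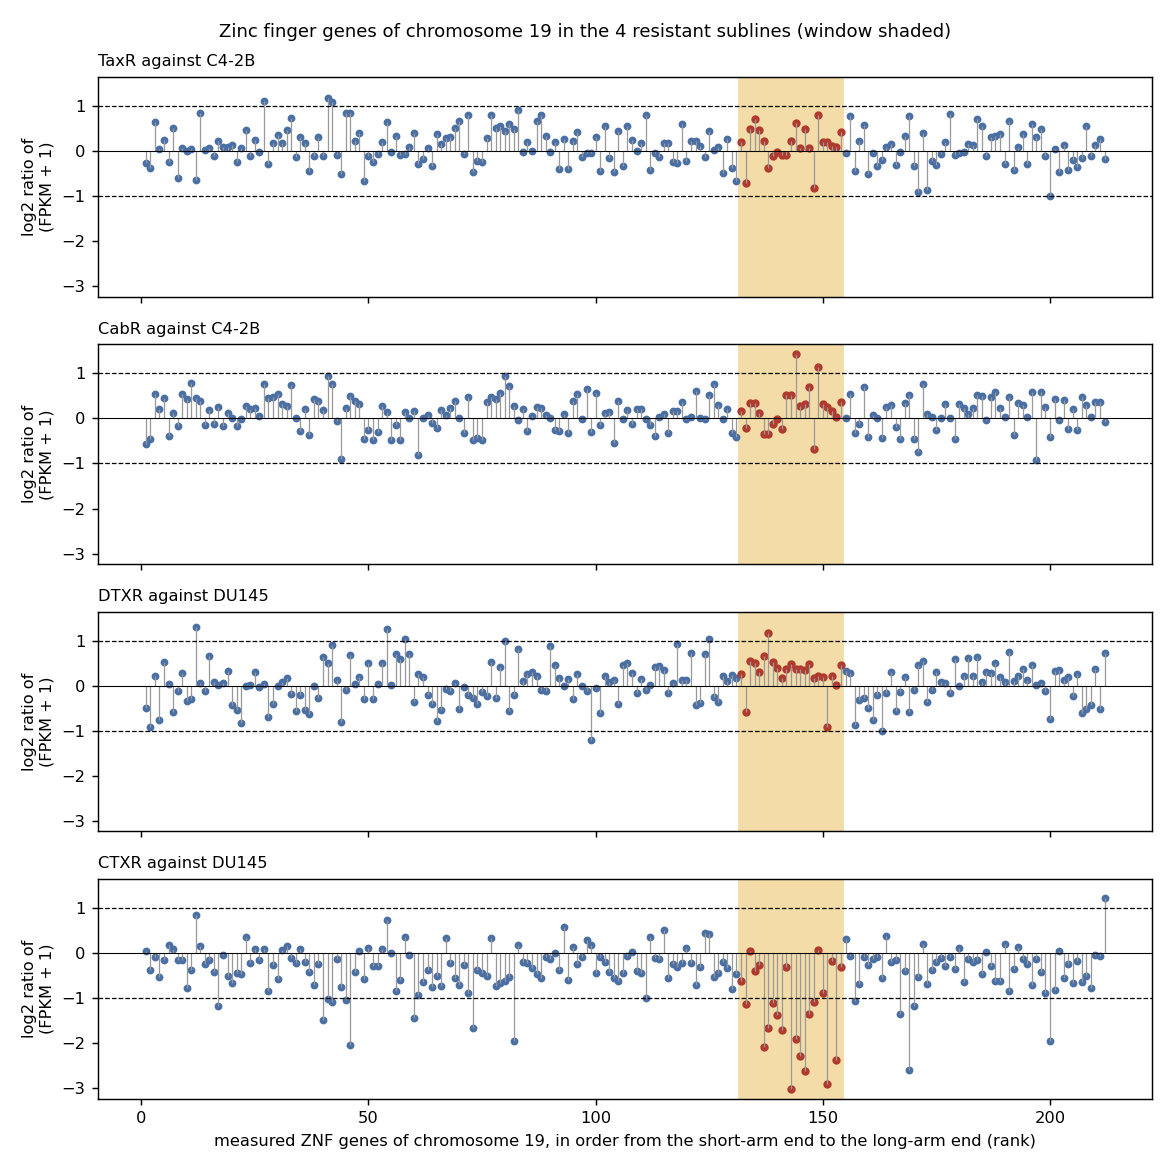
Each point is 1 of the 212 measured ZNF genes of chromosome 19, placed by its rank along the chromosome on the horizontal axis, with its log2 ratio of (FPKM + 1) against the parental line on the vertical axis. Panels are the 4 resistant sublines, dashed lines mark the size rule, and the shaded band with red points holds the 23 genes of the 52.1 to 53.4 Mb window, of which 14 lie below the lower line in CTXR and none in the other 3 panels.

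Members were also compared inside and outside a window from 52.1 to 53.4 Mb on the long arm (GRCh38). The window was set with earlier results of these data known, so its contrasts in CTXR are a description and not a test. Its first listed ZNF gene is ZNF616 (chr19:52113091-52139922) and its last ZNF765 (chr19:53389793-53430413). This window holds 28 listed and 23 measured members. Those not measured were ZNF534, ZNF578, ZNF888, ZNF665 and the read-through ZNF816-ZNF321P. In CTXR 14 of the 23 were lower against DU145, with a median log2 ratio of -1.14, and 14 against DTXR, with a median of -1.65. Of the 189 members elsewhere on the chromosome 15 and 24 were lower, with medians of -0.29 and -0.35. Summed over the 23 genes, FPKM was 139, 147 and 152 in C4-2B, TaxR and CabR, 103 for DU145, 126 for DTXR and 25.04 for CTXR. The same sums over the other 189 were 987, 1027, 1028, 1204, 1178 and 901 FPKM, so CTXR stood far below DU145 inside the window and moderately below it outside.

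Of the 23 window genes 20 had their lowest level of all 6 libraries in CTXR, against 75 of all 212. In CTXR 9 of the 23 were under 0.1 FPKM, of which ZNF816 and ZNF347 were listed at 0. No other library had more than 1 window gene so low. Among the 20 window genes at 1 FPKM or more in DU145, the CTXR level was a median of 17.5% of the DU145 level, and 9 kept less than 10%. Among the 168 such genes outside the window the median was 72.3%, and 7 kept less than 10%. Against DTXR the medians were 15.1% over 21 window genes and 70.2% over 168 others.

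**Figure D2:**
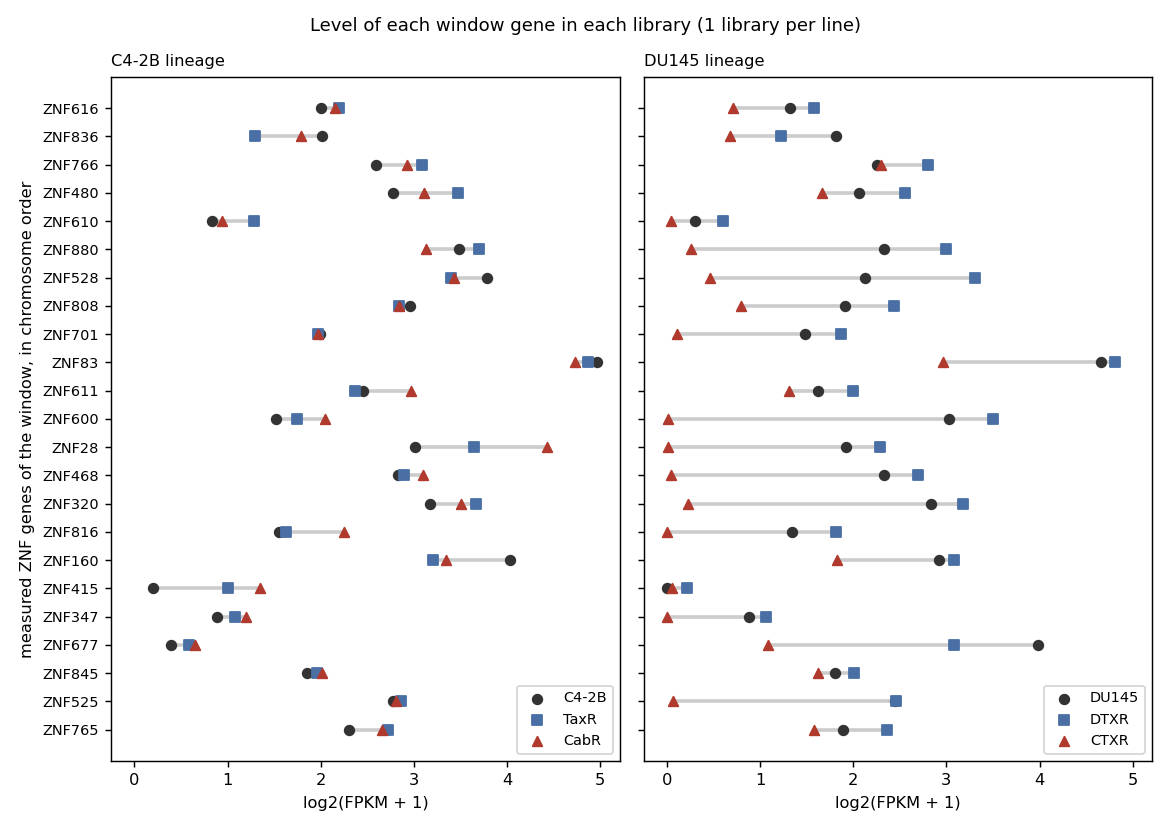
Each row is 1 of the 23 measured window genes in chromosome order, and the horizontal axis gives log2(FPKM + 1) in each library, with the C4-2B lineage on the left and the DU145 lineage on the right. Symbols mark the parent (circle), the docetaxel-resistant line (square) and the cabazitaxel-resistant line (triangle), and bars join the lowest and highest of the 3. On the right the CTXR triangle is the leftmost symbol in 21 of 23 rows.

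The longest unbroken run of lower neighbours spanned 6 measured members, ZNF600, ZNF28, ZNF468, ZNF320, ZNF816 and ZNF160, in each of the CTXR comparisons. ZNF600 (chr19:52749942-52786807, minus strand) had 1.87, 2.36 and 3.13 FPKM across C4-2B, TaxR and CabR, 7.14 for DU145, 10.3 for DTXR and 0.0106 for CTXR. It was the most reduced of all 212 members, with log2 ratios of -3.01 against DU145 and -3.48 against DTXR. ZNF28 (chr19:52797409-52857600, minus strand) had 7.07, 11.5 and 20.5 FPKM in the C4-2B lineage and 2.79, 3.88 and 0.00898 FPKM across DU145, DTXR and CTXR. Its ratios in CTXR were -1.91 and -2.27, and it was 1 of 2 members higher in CabR than in C4-2B. In these genes the 2 lineages ended at opposite extremes, with the cabazitaxel-resistant line highest of 3 in one and lowest of 3 in the other.

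ZNF468 (chr19:52838008-52890375, minus strand) stood at 6.09, 6.44 and 7.59 FPKM in the C4-2B lineage and at 4.01, 5.47 and 0.0314 FPKM across DU145, DTXR and CTXR. ZNF320 (chr19:52863790-52897693, minus strand) went from 6.12 FPKM in DU145 and 8.03 in DTXR to 0.170 in CTXR, where its ratios were -2.60 and -2.95. ZNF816 (chr19:52949379-52962911, minus strand) had 1.53 and 2.52 FPKM in DU145 and DTXR and was listed at 0 in CTXR. ZNF160 (chr19:53066606-53103436, minus strand) kept more, with 6.56, 7.44 and 2.56 FPKM, and ratios of -1.09 and -1.25. The annotated span of ZNF468 overlaps that of ZNF28 and that of ZNF320 on the same strand, so the separate values of these genes are less certain than their joint level.

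On the centromere side of that run, 5 consecutive measured members were also lower. ZNF880 had 4.04 FPKM for DU145, 6.95 for DTXR and 0.197 for CTXR, with ratios of -2.07 and -2.73. Its neighbour ZNF528 had 3.37, 8.87 and 0.377 FPKM, ratios of -1.67 and -2.84, and was the one window gene past the rule upward in DTXR. ZNF808, a repressor of transposable elements whose loss in humans is known to disturb pancreas development, had 2.75, 4.43 and 0.734 FPKM, and ratios of -1.11 and -1.65. ZNF701, which overlaps it, had 1.79, 2.64 and 0.0774 FPKM. ZNF83, the most abundant ZNF gene of the window, had 30.2, 28.1 and 25.5 FPKM across C4-2B, TaxR and CabR, 24.2 for DU145, 27.1 for DTXR and 6.77 for CTXR, with ratios of -1.70 and -1.85.

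At the far end ZNF677 (chr19:53235381-53254898, minus strand) differed first between the parents. It had 0.310, 0.498 and 0.565 FPKM across C4-2B, TaxR and CabR, and 14.9, 7.44 and 1.13 FPKM across DU145, DTXR and CTXR. The level in DTXR was 50.04% of that in DU145 and the level in CTXR 7.58%, so this gene was already lower in DTXR, though not past the rule at -0.91. ZNF525 (chr19:53365693-53392217, plus strand) had 5.85, 6.25 and 6.02 FPKM in the C4-2B lineage, 4.45 for DU145, 4.48 for DTXR and 0.0458 for CTXR, where 1.03% of the DU145 level was left. ZNF836 at the near end was lower against DU145 only, with 2.52, 1.34 and 0.598 FPKM and ratios of -1.14 and -0.55. ZNF347 was past the rule against DTXR only, at 0.836, 1.09 and 0 FPKM across DU145, DTXR and CTXR, and ratios of -0.88 and -1.06. At its DU145 level a ratio past the rule was not possible, so the comparisons do not differ in this gene.

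The low stretch was not continuous. Between and beside the reduced genes, ZNF766 had 3.76, 5.98 and 3.91 FPKM across DU145, DTXR and CTXR, ZNF611 had 2.07, 2.98 and 1.48, and ZNF845 had 2.49, 3.02 and 2.09. These kept 104%, 71.6% and 83.8% of the DU145 level. ZNF765, which overlaps ZNF525, kept 73.2%, at 2.72 FPKM in DU145 and 1.99 FPKM in CTXR. By strand, 10 of the 13 measured window genes on the minus strand were lower in at least 1 CTXR comparison and 5 of the 10 on the plus strand. ZNF480, ZNF616, ZNF610 and ZNF415 were not past the rule. ZNF610 had 0.235, 0.515 and 0.0281 FPKM across DU145, DTXR and CTXR. ZNF415 was at or under 0.159 FPKM in all 3 DU145-lineage libraries. Neither of these could be called lower, so they do not count as kept genes.

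Among coding genes of other kinds in the window the comparison rests on PPP2R1A, since AC010487.3 was at or under 0.2499 FPKM in all 3 DU145-lineage libraries and could not be called lower. PPP2R1A (chr19:52190039-52229533), the scaffold subunit of protein phosphatase 2A, lies between ZNF836 and ZNF766 and had 47.5 FPKM for DU145, 64.6 for DTXR and 63.6 for CTXR. The processed pseudogene NDUFV2P1, which lies beside ZNF677, had 1.67, 2.08 and 2.11 FPKM. Of the 8 measured noncoding genes and pseudogenes 2 were listed at 0 in all 3 DU145-lineage libraries and could not be called lower. Of the other 6, 4 were lower in CTXR against DU145 and 5 against DTXR, and NDUFV2P1 was lower in neither. Those 5 were 3 relatives or antisense partners of zinc finger genes and 2 without a gene name of their own. The unnamed 2 lie within ZNF83 and within ZNF468 on the same strand, and ZNF137P overlaps ZNF83 on the opposite strand. Their values may therefore not be separate from those of these lower members. ZNF528-AS1 had 1.59, 3.80 and 0.159 FPKM across DU145, DTXR and CTXR, and the pseudogenes ZNF137P and ZNF321P had 1.73 and 2.47 FPKM in DTXR and were listed at 0 in CTXR.

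The regions just before 4 gene starts are shown because genes that lie close together differed in CTXR. ZNF611 and ZNF845 had most of their DU145 level there, and ZNF468 and ZNF525 had 0.782% and 1.03% of it. Each sequence is the 250 bases upstream of the RefSeq start in GRCh38.p14, written 5′ to 3′ on the gene's strand, with every CpG dinucleotide, the site of DNA methylation, in capitals. The genes were picked for display after their values were seen. Regions are chr19:52735045-52735294 (minus strand) for ZNF611, chr19:52857620-52857869 (minus) for ZNF468, chr19:53333499-53333748 (plus) for ZNF845 and chr19:53365455-53365704 (plus) for ZNF525. The start used for ZNF468 lies inside the longer gene that GENCODE annotates.
ZNF611: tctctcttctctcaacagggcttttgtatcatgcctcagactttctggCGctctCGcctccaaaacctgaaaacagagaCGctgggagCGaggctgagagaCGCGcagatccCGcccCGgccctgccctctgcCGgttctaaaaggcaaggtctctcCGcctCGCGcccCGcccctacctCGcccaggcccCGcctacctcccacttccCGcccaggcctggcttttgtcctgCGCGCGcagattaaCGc
ZNF468: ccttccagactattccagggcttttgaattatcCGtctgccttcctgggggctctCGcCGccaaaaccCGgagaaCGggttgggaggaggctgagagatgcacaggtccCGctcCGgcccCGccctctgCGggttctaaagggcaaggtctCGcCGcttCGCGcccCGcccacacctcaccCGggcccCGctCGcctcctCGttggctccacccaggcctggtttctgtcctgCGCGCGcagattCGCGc
ZNF845: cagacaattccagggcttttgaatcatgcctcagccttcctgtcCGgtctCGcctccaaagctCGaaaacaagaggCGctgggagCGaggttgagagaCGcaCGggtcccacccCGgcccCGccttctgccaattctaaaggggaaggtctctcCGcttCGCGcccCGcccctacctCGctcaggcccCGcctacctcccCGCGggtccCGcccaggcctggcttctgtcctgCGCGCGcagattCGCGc
ZNF525: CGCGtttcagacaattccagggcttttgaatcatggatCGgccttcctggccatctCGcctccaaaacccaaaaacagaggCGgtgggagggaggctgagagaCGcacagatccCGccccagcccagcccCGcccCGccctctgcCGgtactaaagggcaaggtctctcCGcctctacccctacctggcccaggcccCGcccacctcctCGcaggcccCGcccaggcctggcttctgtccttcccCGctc
The upstream region of ZNF611 held 20 CpG and that of ZNF468 held 23, while ZNF845 had 23 and ZNF525 had 15. The CpG numbers of the kept genes (20 and 23) lie between and on those of the reduced genes (15 and 23).

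Promoters of 300 bases, from 250 before to 50 after the start, were in the RefSeq table for 189 of the 212 members. Their median GC content was 60.7%, against 58.3% over 27305 RefSeq promoters, and their median CpG number 21 against 14. The 19 window promoters had a median GC content of 65.7% and 26 CpG. Within the window the 13 promoters of genes lower in CTXR had a median of 27 CpG and the 6 others 25.5. The ETS core CCGGAAG (or its complement CTTCCGG on the other strand) was in 47.1% of member promoters, in 14 of the 19 window promoters and in 10.7% of all RefSeq promoters. It was found in 66.7% of the 36 promoters of members lower in either CTXR comparison and in 42.5% of the 153 others. Within the window the order was the other way, with 9 of the 13 promoters of lower genes and 5 of the 6 others. These others include ZNF415, which was too low in DU145 and DTXR to be called lower. The YY1 core AAGATGGC was in 7.41% of member promoters against 3.03% of all, the NRF1 core GCATGCGC in 4.23% against 3.27%, and the ZNF143 core ACTACAA in 5.29% against 2.95%. Both strands were searched, and no core contains another. A match describes these letters and is not a bound site.

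The encoded proteins, translated from the longest GENCODE coding sequence, had a median of 12 C2H2 finger patterns, from 0 to 31, and 181 of 212 carried a KRAB pattern. In the window 22 of 23 did, with ZNF83 the exception, and the fingers had a median of 13. Of the 42 members lower in either CTXR comparison 40 carried the pattern (95.2%), as did 141 of the 170 others (82.9%). Within the window the order was the other way, at 14 of 15 lower genes and 8 of 8 others. Over the whole chromosome the median finger number was 15 in the 42 lower members and 12 in the 170 others. Within the window it was 15 in the lower genes and 10.5 in the others. The others of the window include ZNF610 and ZNF415, which were too low in DU145 and DTXR to be called lower. These shares describe the sequence of genes already grouped by expression and were not tested.

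Along the whole chromosome the members fell into 16 groups separated by more than 1 Mb. The group from ZNF175 to ZNF331, at 51.6 to 53.6 Mb, contains the window and had 15 of 35 measured members lower in CTXR against DU145 and 15 against DTXR. Of its 12 members outside the window 1 was lower in each comparison. ZNF331, an imprinted gene at the distal edge, had 23.8, 12.5 and 10.9 FPKM across DU145, DTXR and CTXR, and was past the rule against DU145. ZNF432, on the proximal side, was at 3.93, 4.84 and 1.85 FPKM and past it against DTXR.

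**Figure D3:**
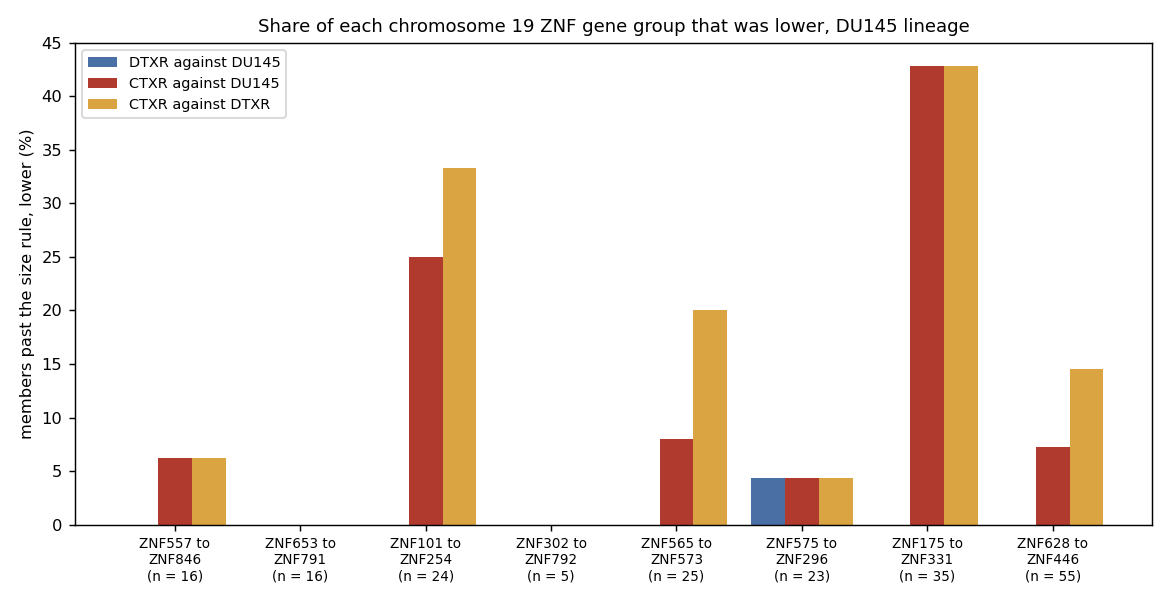
Bars give the percentage of measured members of each group that were lower by the size rule, for the 8 groups with 5 or more measured members, in order along chromosome 19 and labelled by their first and last listed gene. Colours mark the comparisons within the DU145 lineage. The group from ZNF175 to ZNF331, which contains the window, has the tallest bars in CTXR, followed by the group from ZNF101 to ZNF254.

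The next largest share of lower members was in the group from ZNF101 to ZNF254, at 19.7 to 24.1 Mb near the centromere, where 6 of 24 measured members were lower against DU145 and 8 against DTXR. The group's medians were -0.50 and -0.60. ZNF85, named here after its values were seen, had 4.04, 7.11 and 0.216 FPKM across DU145, DTXR and CTXR. ZNF93, a repressor of some LINE-1 elements, had 1.18, 3.10 and 0.0303 FPKM, with ratios of -1.08 and -1.99. ZNF91, known to repress SVA elements, had 1.20, 2.33 and 0.451 FPKM, with ratios of -0.60 and -1.20. ZNF253 had 1.504, 2.54 and 0.240 FPKM and ratios of -1.01 and -1.51. In these 4 genes DTXR was the highest of the 3 lines and CTXR the lowest. Among the group's other lower members ZNF506, ZNF724 and ZNF254 had the same order, and ZNF726 and ZNF66 had DTXR below DU145. The ratios of ZNF726 were -1.44 and -1.09, and those of ZNF66 were -1.05 and -0.95.

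Other groups had scattered lower members. Among all measured genes 5.47% were lower in CTXR against DU145 and 5.25% against DTXR. Against DU145 none of these groups was far above that share. The group from ZNF565 to ZNF573 (36.2 to 37.8 Mb) had 2 of 25 lower against DU145 and 5 against DTXR, among them ZNF585A with 4.75, 3.96 and 0.489 FPKM across DU145, DTXR and CTXR and ZNF382 with 8.75, 7.005 and 2.10. The group from ZNF628 to ZNF446 (55.5 to 58.5 Mb) had 4 and 8 of 55. In it ZNF667 was at 8.52, 5.37 and 0.585 FPKM along the DU145 lineage, and ZNF418 at 4.31, 2.20 and 0.379 FPKM. These genes too were picked out after their values were seen. The group from ZNF653 to ZNF791 (11.5 to 12.6 Mb) had no member lower of 16. ZNF121, at 41.6, 42.0 and 18.0 FPKM, was the one lower member of 16 between 7.1 and 9.8 Mb.

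Against the rest of the genome, the bin of chromosome 19 from 52 to 53 Mb held the largest number of lower protein-coding genes among 1012 bins of 1 Mb with at least 5 measured coding genes. That was 11 of 21 genes (52.4%) in CTXR against DU145 and 11 of 21 against DTXR. By share it ranked the fourth in each comparison, behind bins with 5 to 9 measured genes. Against DTXR 1 of the bins ahead was also on chromosome 19, from 23 to 24 Mb, with 3 of 5 genes lower (60.0%). All 5 of its genes are members. Of the 231 measured ZNF genes on other chromosomes 12 were lower in CTXR against DU145 and 10 against DTXR, with medians of -0.13 and -0.21. The 805 measured coding genes of chromosome 19 that are not ZNF genes had medians of 0.10 and 0.28, with 29 and 11 lower.

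**Figure D4:**
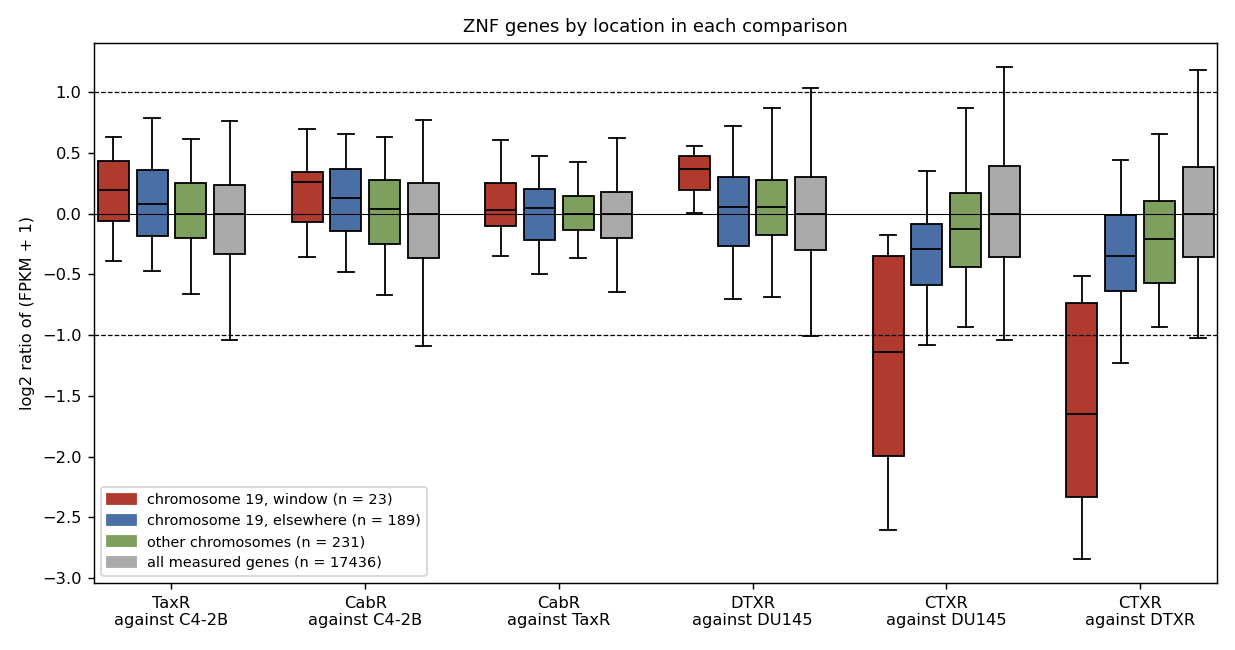
Boxes show the quartiles and median of the log2 ratio of (FPKM + 1), with whiskers at the percentiles 5 and 95, for window genes (n = 23), other chromosome 19 ZNF genes (n = 189), ZNF genes of other chromosomes (n = 231) and all measured genes (n = 17436) in 6 comparisons. In the CTXR comparisons the window box lies lowest, with medians of -1.14 and -1.65, and in DTXR against DU145 the window median is 0.37.

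Only 2 members were higher in CTXR by the size rule. ZNF446, the last member along the chromosome, had 1.85, 3.68 and 5.59 FPKM across DU145, DTXR and CTXR and a ratio of 1.21 against DU145. It overlaps other measured genes, ZNF324 and SLC27A5 among them, 2 on the opposite strand and 1 on the same strand. ZNF428 had 3.45, 0.929 and 4.07 FPKM, so its ratio of 1.39 against DTXR follows a low level in DTXR.

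The docetaxel-resistant line DTXR, the parent of CTXR, showed no such low stretch. Against DU145, 5 of 212 members were higher and 1 lower, with a median of 0.09, where 5.37% of all measured genes were higher and 5.1% lower. In the window 1 gene was higher and none lower, the median was 0.37, and 21 of 23 ratios lay above 0. The median window gene at 1 FPKM or more in DU145 stood at 142% of its DU145 level in DTXR. ZNF528 had the third largest ratio at 1.17, after the read-through ZNF559-ZNF177 (0.144 to 1.83 FPKM, 1.31) and ZNF100 (0.104 to 1.63 FPKM, 1.25). ZNF428, at -1.21, was the 1 lower member. The 805 other coding genes of chromosome 19 had 91 lower and 10 higher.

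In the C4-2B lineage few members differed. In TaxR 3 were higher and 1 lower than in C4-2B, with a median of 0.09, against 2.52% and 5.64% of all measured genes. ZNF253 went from 0.370 to 2.09 FPKM, ZNF433 from 1.62 to 4.62 and ZNF93 from 0.766 to 2.76. ZNF418, at 2.14 FPKM in C4-2B and 0.570 in TaxR, sat on the threshold with a ratio of -1.002 and was past it in none of the 3 rescalings of the libraries. Subtracting a DU145 share of 1.46%, estimated from 8 of the DU145-side markers, left the counts at 3 and 1. The TaxR window median went from 0.19 to 0.09. So small a share takes little from most members, whose median in DU145 was 3.37 FPKM, so only genes near the threshold could change sides. Whether DU145 RNA contributed to the TaxR values was not tested. ZNF433 itself was at or under 0.067 FPKM in every DU145-lineage library.

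In CabR 2 members were higher than in C4-2B and 0 lower, with a median of 0.15, against 2.67% and 6.2% of all measured genes. Both lie in the window, ZNF28 with a ratio of 1.41 and ZNF415, at 0.151, 1.002 and 1.54 FPKM along the C4-2B lineage, with a ratio of 1.14. The window median in CabR was 0.26. Against TaxR 1 member was higher and 1 lower, with a median of 0.04, against 1.75% and 1.84% of all measured genes. ZNF814 went from 9.25 FPKM in TaxR to 3.39 in CabR, a ratio of -1.22, and ZNF559-ZNF177 from 0.916 to 3.14, a ratio of 1.11. With the DU145 share taken out of TaxR 2 were higher.

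The parental lines differed far more from each other. In DU145 37 members were higher and 26 lower than in C4-2B, with a median of 0.19, against 17.3% and 19.5% of all measured genes. ZNF682 had 7.06, 6.58 and 6.76 FPKM in the C4-2B lineage and 0.102, 0.209 and 0 FPKM across DU145, DTXR and CTXR, a ratio of -2.87 between parents. ZNF429 was at 3.53 FPKM in C4-2B and listed at 0 in DU145. ZNF100 was at 3.48 and 0.104 FPKM. In the other direction ZNF677 led with 3.60, followed by ZNF560 (0.0226 and 3.38 FPKM, 2.10) and ZNF569 (1.02 and 7.01 FPKM, 1.99). The group from ZNF575 to ZNF296 (43.5 to 45.1 Mb) had 12 of 23 members higher in DU145, with a median of 1.01, the largest count of any group. In the window 5 were lower and 2 higher in DU145, with a median of -0.41. That count of 5 rests on the scaling: it was 1, with a median of -0.19, at the same total without mitochondrial genes, and 2, with a median of -0.31, at the same upper quartile. ZNF433 and ZNF43 reached 1 FPKM in the C4-2B lineage, peaking at 4.62 and 1.75 FPKM, and under 0.1 FPKM in all 3 DU145-lineage libraries. No member had the reverse pattern.

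The size of these calls depended little on scaling for CTXR and more for the parents. After setting all libraries to 1 total without mitochondrial genes, 31 members were lower in CTXR against DU145 and the window count stayed at 14. Over all genes that rescaling moved the split from 1299 higher and 953 lower to 1126 and 1238, and the median of all genes to -0.08. For DU145 against C4-2B it moved the split from 3009 higher and 3395 lower to 3867 and 2598, and the median of all genes to 0.17. Members lower in DU145 then numbered 16 rather than 26.

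No measured gene from a list of KRAB partners and related chromatin genes was past the rule in CTXR. The list is mixed and also holds DNMT1, DNMT3A, DNMT3B, UHRF1, TET1, TET2, TET3 and ZFP57. Of the 28 listed genes 26 were measured. Of these 0 were past the rule in either direction in CTXR against DU145, with a median of -0.18, or against DTXR, with a median of -0.04. Over all measured genes 5.47% were lower and 7.45% higher against DU145, and 5.25% and 7.29% against DTXR. At those shares few of 26 genes would be past the rule. Smaller differences were present, and against DU145 the ratios reached -0.83 for CBX5 (21.0 to 11.4 FPKM) and 0.66 for CBX1 (46.2 to 73.6 FPKM). TRIM28, the corepressor bound by KRAB, had 165, 197 and 213 FPKM across C4-2B, TaxR and CabR and 119, 120.1 and 104.5 FPKM across DU145, DTXR and CTXR. SETDB1, the methyltransferase it recruits, had 19.5, 15.8 and 18.0 FPKM and 27.97, 21.5 and 27.1 FPKM. Between DU145 and CTXR both differed by under 0.2 on the log2 scale, at -0.18 and -0.04. CHD3, a helicase of NuRD, was the 1 listed gene past the rule in a resistant line against its parent. It had 115, 73.2 and 51.8 FPKM across C4-2B, TaxR and CabR and a ratio of -1.13 in CabR. ZNF274, a member known to bring SETDB1 to the 3′ ends of other zinc finger genes and named for that reason, had 13.4, 15.3 and 11.1 FPKM across DU145, DTXR and CTXR.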

How the data were processed

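Stranded mRNA libraries were made from total RNA of 6 cell lines, 1 per line, per the labels' protocols. The submitters' processing notes name HISAT, StringTie, Cuffnorm and GRCh38, without versions. Not given in the sources used here are the annotation, the strand setting and any joint scaling of the libraries. The authors deposited FPKM per Ensembl gene in 1 table per library, used as deposited. An exact 0 can be a failed estimate. Identifiers were matched to a symbol table (56550 of 60658) and to GENCODE release 29 (57047), which gave names, biotypes and GRCh38 positions. Promoters came from RefSeq (GRCh38.p14).

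Ratios are log2 of (FPKM + 1), and genes at 1 FPKM or more in any library were measured. No test was made, since each line has 1 library. The members, the window, the marker and partner lists and the settings were chosen with earlier results of these data known. Named genes are window members past the size rule in the DU145 lineage, the 3 highest and 3 lowest past it per comparison, genes past it in the same direction in both sublines of a lineage (none met this), the 4 most abundant, lineage-restricted genes, and partners past the rule with TRIM28 and SETDB1. Other members were named after their values were seen. TaxR carries the word old in its title, which the labels do not explain. The size rule was tested on simulated data. Alternatives were 2 pseudocounts, 2 filters, 3 rescalings, another threshold, TaxR without a DU145 share and a wider window. Depth was estimated from percentile 5 of FPKM times transcript length over genes with 1 transcript, and no counting interval is given. Python 3.11.15, numpy 2.4.6, pandas 2.3.3 and matplotlib 3.10.9 were used.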

Additional observations from a re-analysis of the deposited data

How the results depend on the processing

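With 1 library per line no library could be left out within a line, and no value changed direction between higher and lower calls under the 10 alternatives. No paired analysis was possible because each line has 1 library and no result comes from a test. The count of window genes lower in CTXR ranged from 13 to 17 against DU145 and from 12 to 19 against DTXR. Counts of a few genes depend most on the settings. A pseudocount of 0.1 gave 18 members higher and 7 lower in TaxR, 11 and 5 in CabR, 4 and 6 in CabR against TaxR, 14 and 8 in DTXR and 5 and 45 in CTXR against DU145. The CTXR medians became -0.46 and -0.53 over members and -1.91 and -2.44 in the window. A pseudocount of 0.5 gave 11 and 2 in TaxR, 4 and 2 in CabR, 2 and 3 in CabR against TaxR, 10 and 4 in DTXR and 3 higher in CTXR against DU145, with window medians of -1.46 and -1.93. A threshold of 0.6 gave 25 and 9 in TaxR, 14 and 5 in CabR, 10 and 6 in CabR against TaxR, 22 and 14 in DTXR, 3 and 63 in CTXR against DU145, 3 and 69 against DTXR, and 59 and 41 in DU145 against C4-2B. Without a filter the member medians were -0.23 and -0.30 in CTXR and 0.043 in DU145 against C4-2B, and the window medians -0.98 and -0.98. At a minimum of 3 FPKM 1 member was higher in CabR, and the window medians were -1.34 and -1.81. With the same total 0 members were lower in TaxR, 2 in DTXR and 16 in DU145 against C4-2B, and medians were -0.45 over members and -1.25 in the window for CTXR against DU145 and 0.41 for DU145 against C4-2B. With the same upper quartile 0 were lower in TaxR and 2 in DTXR, and the median of DU145 against C4-2B was 0.30. Median-ratio factors left 0 lower in TaxR. Without the DU145 share in TaxR 2 members were higher in CabR against TaxR. A window wider by 0.5 Mb on each side had medians of -0.70 and -0.83. Apart from the changes that follow from fewer or more genes entering, the cause was not tested. Of 1972 values of single genes under an alternative, 1895 stayed on their side of the threshold. These include 238 values under each of the 2 filters, which cannot change the ratio of a single gene. Depth limits genes under about 0.1 FPKM, where values rest on few fragments.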

Other observations

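Zinc finger genes of chromosome 19 that carry other names behaved unevenly. Of 12 measured, 1 was lower in CTXR against DU145 and 2 against DTXR. ZFP28, next to ZNF471, had 4.70, 4.23 and 1.27 FPKM across DU145, DTXR and CTXR, with ratios of -1.33 and -1.21. ZSCAN18 had 13.9, 24.7 and 10.0 FPKM, and was past the size rule only against DTXR. ZFP36, which is named zinc finger but encodes an RNA-binding protein that destabilises mRNA, had 17.0, 19.9 and 34.4 FPKM in the DU145 lineage and 20.8, 12.4 and 9.56 FPKM across C4-2B, TaxR and CabR. ZIK1 went from 2.93 FPKM in C4-2B to 0.220 in TaxR and 0.707 in CabR. PEG3, an imprinted gene, had 0.869, 2.99 and 1.70 FPKM in the C4-2B lineage and was listed at 0 in all 3 DU145-lineage libraries.

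Among ZNF genes on other chromosomes, the largest differences between DU145 and DTXR were upward. ZNF736 and ZNF300 were near absent in DU145, at 0.142 and 0.0171 FPKM, and stood at 12.3 and 7.05 FPKM in DTXR. In CTXR ZNF736 was at 0.580 FPKM and ZNF300 at 4.07 FPKM. ZNF354C and ZNF879, which share a chromosome, had 3.40 and 2.64 FPKM in DU145, 1.13 and 0.331 in DTXR and 0.186 and 0.0127 in CTXR. These genes were picked after their values were seen, and with 1 library per line none of the differences has a replicate check.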
